A study of Homo sapiens with 27 samples.

Results

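The C-type lectin (CLEC), Siglec and LILR families are surface receptors by which myeloid cells read sugars, lipids, dying cells and the identity of neighbouring cells. All genes on the array whose symbol begins with CLEC, SIGLEC or LILR were taken, together with CD33 and CD22, which belong to the Siglec family under older names. That gave 47 genes of the 15207 named genes measured: 24 CLEC genes, 13 Siglec genes and 10 LILR genes. They carry 52 of the 30968 probes of the array, and each gene was represented by its brighter probe where it had a second one, as 5 genes did. The rule uses gene names only, and brightness picked the probe, although earlier results of these data were known when the families were chosen.

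Expression was measured in U937, an established human line from a histiocytic lymphoma that is widely used as a model of monocytes. In the first group the cells received 10 µM PBD150, an inhibitor of glutaminyl cyclase, for 2 h before lipopolysaccharide (LPS, the bacterial outer-membrane component sensed through Toll-like receptor 4) at 4 µg/ml. The second group received LPS at 4 µg/ml without the inhibitor, and the third was untreated. All were cultured for 48 h in serum-containing medium, and no group received PBD150 without LPS. The treatment notes speak of macrophages without giving a differentiating agent, and all cells are of 1 tumour line. Each group had 3 cultures labelled as biological replicates, each read on 3 arrays, so n = 3 below is 3 cultures. Nothing states that the cultures were grown independently, so p-values measure the spread between these cultures.

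Values are log2 of the quantile-normalised spot intensity, averaged over the 3 arrays of a culture. A difference of 1 on this scale is a doubling. Across the 27 arrays the median intensity lay between 41.5 and 100.3, and the 3 arrays of untreated replicate 1 were the dimmest, at 41.5 to 46.8 against 64.7 or more elsewhere. Each array's noise limit, set at 3 times the root mean square over the array's negative values, corresponded to 3.72 to 4.39 on the normalised log2 scale, and 69.0% to 77.8% of probes exceeded it. Of the 47 genes, 38 were above that limit on all 9 arrays of at least one group. The remaining 9 were CLEC14A, CLEC1B, CLEC3A, CLEC4E, CLEC4M, CLEC6A, LILRA1, SIGLEC1 and SIGLEC9. CLEC4M came nearest, with 8 of 9 arrays above the limit in every group, and the other 8 had untreated values mostly below it. All 47 are included in every count below.

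The families share a logic of paired signals. Many Siglecs, the inhibitory LILRs and a few C-type lectins carry immunoreceptor tyrosine-based inhibitory motifs (ITIMs) in their tails, which recruit the phosphatases SHP-1 and SHP-2 and restrain activation. Others have no signalling tail of their own and pair with the adaptors DAP12 (TYROBP) or the Fc receptor gamma chain (FCER1G), whose activating motifs (ITAMs) recruit the kinase SYK. Siglecs bind sialic acid on self glycans, several LILRs bind HLA class I, and C-type lectin receptors of monocytes and macrophages recognise fungal, mycobacterial and damaged-cell ligands.

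LPS against untreated shows what LPS changed. Of the 47 receptor genes, 17 rose, 3 fell and 27 did not pass an adjusted p of 0.05 (limma, adjusted over all probes). Over all named genes the same rule called 13.6% higher and 15.4% lower. The median difference was 0.65 over the receptors, against 0.05 over all named genes. Without scaling between arrays, 25 receptors rose and 3 fell, and with median centring 14 rose and 3 fell. Among all probes the share of calls that were higher was 47.3% as reported, 72.9% without scaling and 37.5% with median centring. Of the 17 that rose, 10 changed at least 4-fold and 6 at least 8-fold. In bulk RNA, fewer cells of a type and less RNA per cell cannot be told apart.

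**Figure D1:**
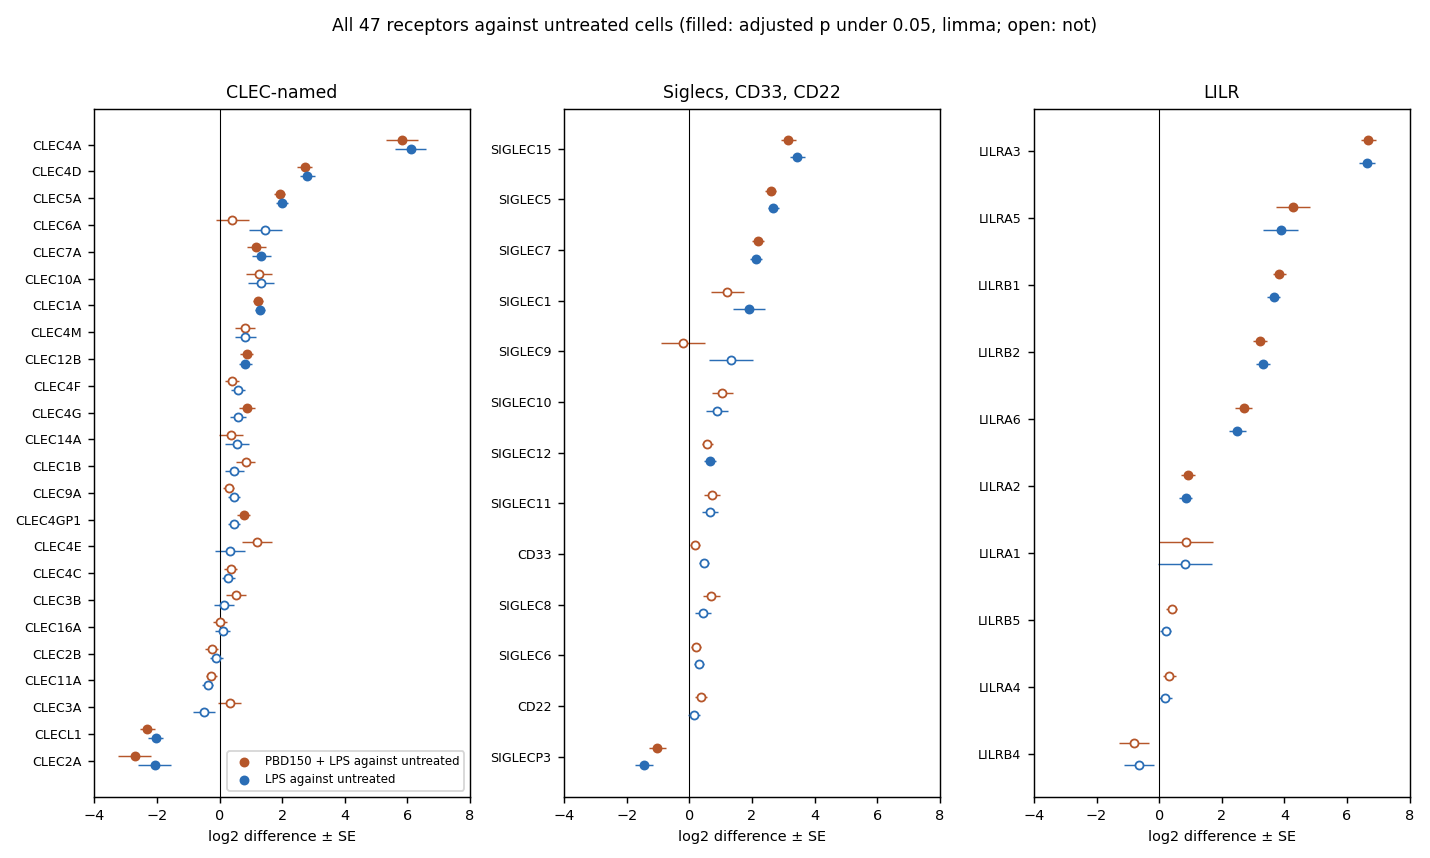
Log2 difference ± SE from untreated cells for all 47 receptor genes by family, for PBD150 plus LPS and for LPS (n = 3 cultures per group); filled symbols passed an adjusted p of 0.05 in limma. LILRA3 and CLEC4A lie farthest to the right and CLEC2A and CLECL1 farthest to the left in both comparisons.

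Among LILR genes, 6 of 10 rose and none of the 10 fell, with a median difference of 1.67. LILRA3, which encodes a secreted LILR without a transmembrane segment, read 12.02, 11.77 and 12.17 in PBD150 plus LPS cultures, 11.74, 12.07 and 12.03 in LPS cultures, and 5.05, 5.10 and 5.78 in untreated cultures. The treated cultures formed a tight cluster far above all untreated ones. Its LPS difference was 6.64 ± 0.25 (SE), a 99.5-fold change, with an adjusted p of 3.34e-06.

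LILRB1, an inhibitory receptor for HLA class I, read 10.85, 10.91 and 11.38 with PBD150 plus LPS, 10.89, 10.79 and 10.93 with LPS, and 7.49, 7.12 and 7.03 untreated. It rose by 3.65 ± 0.21 with LPS (12.6-fold, adjusted p = 2.28e-05). LILRB2, its close relative with the same kind of ligand and an inhibitory tail, read 9.96, 9.92 and 10.45 with PBD150 plus LPS, 10.48, 10.08 and 10.04 with LPS, and 7.07, 6.87 and 6.70 untreated. It rose by 3.32 ± 0.23 (9.99-fold, adjusted p = 4.47e-05). For both receptors every LPS culture lay above every untreated culture.

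Of 6 activating or soluble LILRs, 4 rose: LILRA3, LILRA5, LILRA6 and LILRA2. LILRA5, an FCER1G-coupled receptor of monocytes and neutrophils, read 9.55, 8.93 and 9.37 with PBD150 plus LPS, 7.38, 9.67 and 9.63 with LPS, and 4.98, 4.89 and 5.17 untreated. LPS replicate 1 was well below the other LPS cultures yet above all untreated ones. The difference was 3.88 ± 0.56 (adjusted p = 0.00149), and it lay between 3.49 and 4.64 when each culture of the series was left out in turn. LILRA6 has 2 probes that disagreed on size: the brighter gave 2.49 ± 0.27 (adjusted p = 0.000367) and the other 4.88 ± 0.33 (adjusted p = 4.55e-05). LILRA2, which detects immunoglobulin cut by microbial proteases, rose by 0.85 ± 0.21 (adjusted p = 0.0214), a call that ended without LPS replicate 3 or any 1 untreated culture (highest adjusted p = 0.0713).

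The other 4 LILR genes did not pass. LILRB4, an inhibitory receptor that binds apolipoprotein E, was the only LILR with a negative difference, at -0.65 ± 0.48 (adjusted p = 0.386). Its cultures read 7.79, 5.76 and 7.53 with PBD150 plus LPS, 6.94, 7.40 and 7.23 with LPS, and 7.68, 7.83 and 8.00 untreated. All LPS values were below all untreated values, while the PBD150 plus LPS values spread across both. LILRB5 differed by 0.21 and LILRA4, known from plasmacytoid dendritic cells, by 0.20, both within the error. LILRA1 was near the noise limit in every group. LILR genes are close in sequence, the probe sequences were not used here, and the part of cross-hybridisation in these values was not tested.

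**Figure D2:**
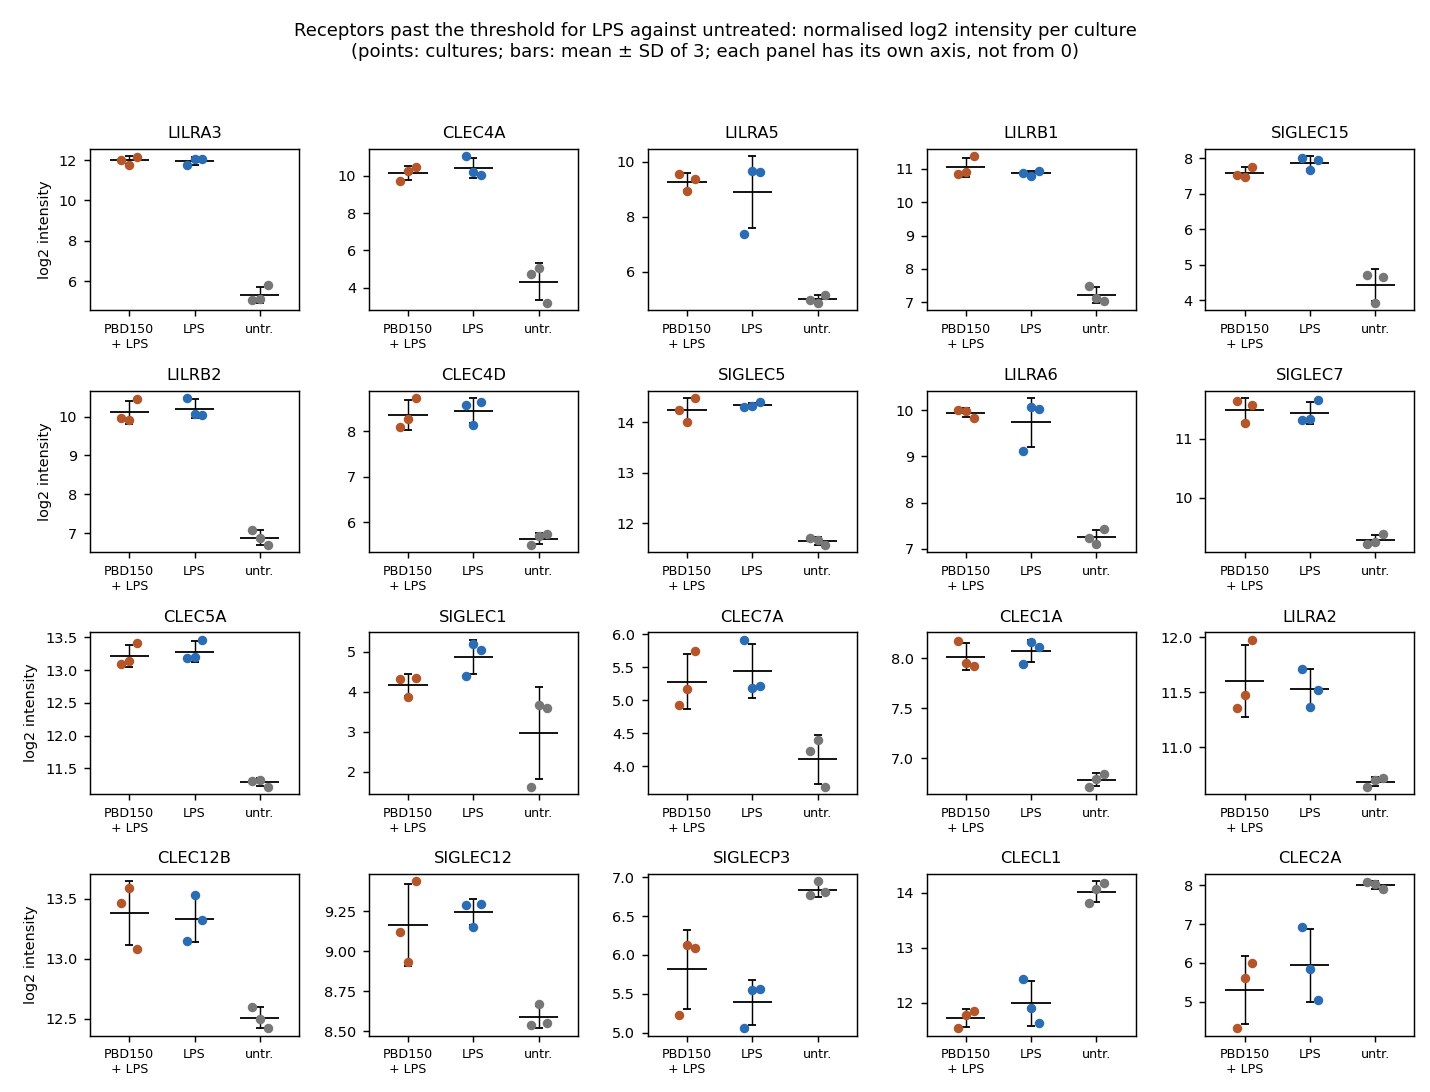
Log2 intensity per culture for the 20 receptor genes called in LPS against untreated, each panel with its own vertical axis and the groups ordered PBD150 plus LPS, LPS, untreated; a point is the mean of 3 arrays of 1 culture. LPS replicate 1 of LILRA5 sits at 7.38, below 9.67 and 9.63, and above the untreated values of 4.89 to 5.17.

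Among Siglec genes, 5 of 13 rose and 1 fell, with a median difference of 0.66. SIGLEC15, which pairs with DAP12 and is best known in osteoclasts, read 7.52, 7.48 and 7.76 with PBD150 plus LPS, 8.01, 7.67 and 7.94 with LPS, and 4.71, 3.92 and 4.65 untreated. Every treated culture exceeded every untreated one by more than a 4-fold step. The LPS difference was 3.45 ± 0.25 (10.9-fold, adjusted p = 5.94e-05). Its size rests on untreated values close to the noise limit, which 8 of 9 untreated arrays exceeded. Over the alternative analyses the difference lay between 2.72 and 3.81. SIGLEC5, an ITIM receptor of monocytes and neutrophils, read 14.24, 14.01 and 14.48 with PBD150 plus LPS, 14.30, 14.32 and 14.39 with LPS, and 11.72, 11.66 and 11.57 untreated. It rose by 2.68 ± 0.18 (6.43-fold, adjusted p = 4.20e-05). Its ligand-binding end is nearly the same as that of SIGLEC14, so the 2 genes may share signal on this array, which was not tested.

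SIGLEC7, an ITIM receptor of natural killer cells and monocytes with a preference for disialylated glycans, rose by 2.13 ± 0.19 (adjusted p = 0.000148). Its cultures read 11.63, 11.26 and 11.57 with PBD150 plus LPS, 11.31, 11.32 and 11.64 with LPS, and 9.23, 9.26 and 9.39 untreated. SIGLEC1, the sialoadhesin of tissue macrophages, rose by 1.90 ± 0.52 (adjusted p = 0.0318) from untreated values mostly under the noise limit, since only 3 of 9 untreated arrays exceeded it. Without LPS replicate 2 or LPS replicate 3 it no longer passed (highest adjusted p = 0.0963). SIGLEC12 rose by 0.66 ± 0.19 (adjusted p = 0.0351), and leaving out any 1 LPS culture, any 1 untreated culture or PBD150 plus LPS replicate 1 ended the call (highest adjusted p = 0.108).

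The 1 Siglec gene that fell was listed as SIGLECP3, which is now named SIGLEC17P and is a pseudogene. It read 5.23, 6.13 and 6.08 with PBD150 plus LPS, 5.05, 5.55 and 5.56 with LPS, and 6.77, 6.95 and 6.81 untreated, a difference of -1.45 ± 0.28 with LPS (adjusted p = 0.0064).

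CD33 (Siglec-3), an ITIM receptor of myeloid cells and an antibody target in leukaemia, did not pass. It read 11.78, 11.72 and 11.91 with PBD150 plus LPS, 12.16, 11.99 and 12.11 with LPS, and 11.65, 11.61 and 11.56 untreated. The LPS cultures lay above all untreated ones by a small step of 0.48 ± 0.16 (adjusted p = 0.0635), and the gene passed in 6 of the 18 alternative analyses. SIGLEC10, SIGLEC11, SIGLEC8 and SIGLEC6 differed by 0.88, 0.65, 0.44 and 0.31 without passing. CD22, the Siglec of B cells, differed by 0.15 ± 0.20 (adjusted p = 0.628) on its brighter probe and by 0.95 ± 0.33 (adjusted p = 0.0767) on its second, where all LPS cultures lay above all untreated ones, and neither probe passed. SIGLEC9 was mostly below the noise limit, with 3 of 9 LPS arrays and 0 of 9 untreated arrays above it.

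Among the C-type lectin genes, 6 of 24 rose and 2 fell, with a median difference of 0.51. CLEC4A (DCIR), the ITIM-bearing lectin of dendritic cells and monocytes, read 9.72, 10.25 and 10.45 with PBD150 plus LPS, 11.05, 10.20 and 10.02 with LPS, and 4.74, 5.05 and 3.17 untreated. Treated and untreated cultures were far apart, and untreated replicate 3 was lower than the other untreated cultures. The LPS difference was 6.10 ± 0.50 (68.7-fold, adjusted p = 0.00011). Its size rests on untreated values close to the noise limit, which 8 of 9 untreated arrays exceeded. Over the alternative analyses the difference lay between 5.10 and 6.47. A second probe of the gene gave 5.41 ± 0.42 (adjusted p = 8.87e-05), with only 3 of 9 untreated arrays above the noise limit on it. The other ITIM-bearing lectin, CLEC12B, rose by 0.82 ± 0.20 on its brighter probe (adjusted p = 0.0193), but its second probe differed by -0.57 ± 0.26 without passing (adjusted p = 0.158), and averaging both gave 0.13. The direction of CLEC12B therefore depended on the probe, and the call of the brighter one ended without LPS replicate 2 or 3 or untreated replicate 2 or 3 (highest adjusted p = 0.0729).

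Of 8 lectins that signal through an ITAM adaptor or a single-tyrosine hemITAM, 3 rose. CLEC4D (MCL), which acts with Mincle in sensing mycobacterial cord factor, read 8.08, 8.27 and 8.73 with PBD150 plus LPS, 8.57, 8.13 and 8.64 with LPS, and 5.51, 5.69 and 5.73 untreated. It rose by 2.81 ± 0.23 (6.99-fold, adjusted p = 0.000112). CLEC5A (MDL-1), a DAP12-coupled receptor that binds dengue virus, read 13.09, 13.14 and 13.41 with PBD150 plus LPS, 13.19, 13.19 and 13.46 with LPS, and 11.31, 11.33 and 11.22 untreated. It rose by 1.99 ± 0.18 (3.99-fold, adjusted p = 0.000153). CLEC7A (Dectin-1), the beta-glucan receptor, rose by 1.34 ± 0.31 (adjusted p = 0.0161), with 7 of 9 untreated arrays above the noise limit; without untreated replicate 3 it did not pass (highest adjusted p = 0.0617).

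The other 5 lectins of that class did not pass. CLEC4E (Mincle) read 4.40, 3.98 and 4.15 with PBD150 plus LPS, 2.37, 3.55 and 4.03 with LPS, and 2.15, 3.29 and 3.49 untreated. It exceeded the noise limit on 6 of 9 PBD150 plus LPS arrays, 2 of 9 LPS arrays and 1 of 9 untreated arrays. Dectin-2 (CLEC6A) had no LPS or untreated array above that limit. CLEC9A, the dendritic cell receptor for exposed actin filaments, differed by 0.47 ± 0.18 (adjusted p = 0.107). CLEC4C (BDCA-2), of plasmacytoid dendritic cells, differed by 0.28 without passing. CLEC1B (CLEC-2), the podoplanin receptor of platelets, had 4 of 9 LPS arrays and 0 of 9 untreated arrays above the noise limit.

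Of the 6 endocytic and adhesive lectins, 1 rose. CLEC1A, which recognises fungal melanin, read 8.17, 7.95 and 7.92 with PBD150 plus LPS, 7.94, 8.16 and 8.11 with LPS, and 6.72, 6.80 and 6.84 untreated, a difference of 1.28 ± 0.17 (adjusted p = 0.000931). CLEC10A (MGL), the galactose-type lectin of macrophages and dendritic cells, narrowly missed the threshold at 1.33 ± 0.42 (adjusted p = 0.051). Its LPS cultures were scattered, at 4.45, 5.70 and 6.23. CLEC4F, a Kupffer cell receptor in mouse, differed by 0.59 ± 0.22, CLEC4M (L-SIGN) by 0.82 ± 0.33 and the endothelial lectin CLEC14A by 0.55 ± 0.39, and none of these passed.

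The 2 lectins that fell lie outside the pathogen-sensing group. CLECL1 (DCAL-1), a lectin-like protein of dendritic cells and B cells, read 11.53, 11.78 and 11.85 with PBD150 plus LPS, 12.44, 11.91 and 11.62 with LPS, and 13.81, 14.08 and 14.18 untreated. It fell by 2.03 (SE 0.24, adjusted p = 0.000614). CLEC2A, the ligand of the natural killer receptor NKp65, read 4.31, 5.60 and 5.99 with PBD150 plus LPS, 6.93, 5.83 and 5.05 with LPS, and 8.08, 8.04 and 7.91 untreated. It fell by 2.07 (SE 0.53, adjusted p = 0.0246), with treated cultures more scattered than untreated ones. Leaving out LPS replicate 2, LPS replicate 3 or any 1 untreated culture ended the CLEC2A call (highest adjusted p = 0.0767). CLEC2B (AICL), the ligand of the related receptor NKp80, differed by -0.10 ± 0.21. Among secreted proteins, CLEC11A, a stem cell growth factor, differed by -0.38 ± 0.18 and CLEC3B (tetranectin) by 0.14 ± 0.32, and neither passed. CLEC16A, an intracellular regulator of mitophagy that shares the name but is no lectin receptor, differed by 0.10 ± 0.23.

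A looser description takes the genes whose LPS and untreated cultures did not overlap. There were 30 such receptors on the higher side and 5 on the lower, against 25.8% and 24.7% of all named genes. Of these, 15 did not pass the adjusted threshold, and the 13 higher ones had differences between 0.28 and 1.47.

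Calls were also set beside gene order. Of the 13 measured receptors on chromosome 12, 5 rose and 2 fell, and of the 25 on chromosome 19, 9 rose and 1 fell. In RefSeq gene order, CLEC6A, CLEC4D and CLEC4E follow each other with no protein-coding gene between them. CLEC4D rose, while CLEC6A and CLEC4E were below the noise limit on most LPS and untreated arrays. CLEC2B and CLEC2A are likewise adjacent, and CLEC2A fell while CLEC2B did not pass. CLEC1B, CLEC12B, CLEC9A, CLEC1A and CLEC7A are also adjacent. CLEC1A, CLEC7A and, on its brighter probe only, CLEC12B rose, while CLEC1B and CLEC9A did not pass. In the leukocyte receptor cluster, LILRA6, LILRB2 and LILRA5 rose, while LILRB5, which lies between LILRA6 and LILRB2, and LILRA4, which follows LILRA5, did not pass. Farther along, LILRA2 and LILRB1 rose, while LILRA1 between them and LILRB4 after them did not pass. LILRB2 and LILRA5 follow each other in the order used, and both rose. LILRA3, which also rose, was placed outside this cluster in that order, so its neighbours were not assessed. Differences between neighbours were not tested.

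Promoter sequence was available for 31 of the 47 genes, as the 250 bases before the RefSeq transcription start (GRCh38.p14). The myeloid factor PU.1 binds purine-rich sites, and its core letters GAGGAA were searched on both strands. They occur in 23.6% of 35116 windows of that length, and in 27.3% of genes. Of 10 LPS-raised receptors with a window, 6 held a match, as did 9 of 20 that were not called and 0 of 1 that fell. The AP-1 letters TGANTCA occur in 6.57% of windows and in 8.06% of genes. They were found in 1 of 10 raised and 1 of 20 uncalled receptors. For NF-kB, GGG and CC with any 5 bases between them occur in 54.4% of windows and in 57.8% of genes. They were found in 6 of 10 and 12 of 20. For the interferon-response element, GAAA repeated after any 2 bases occurs in 3.02% of windows and in 3.71% of genes. It was found in none of the 10 and none of the 20. A match to such short letters describes the window and does not show binding. The following 5 windows are shown because they set 4 receptors with clear LPS rises beside CLEC4E, an LPS-response gene in mouse macrophages. CLEC4E was below the noise limit on most LPS and untreated arrays here. Capitals mark PU.1 matches. Each sequence reads 5′ to 3′ on the strand of the gene, and the last base is the one before the transcription start.
CLEC5A, chr7:141946975-141947224, minus strand: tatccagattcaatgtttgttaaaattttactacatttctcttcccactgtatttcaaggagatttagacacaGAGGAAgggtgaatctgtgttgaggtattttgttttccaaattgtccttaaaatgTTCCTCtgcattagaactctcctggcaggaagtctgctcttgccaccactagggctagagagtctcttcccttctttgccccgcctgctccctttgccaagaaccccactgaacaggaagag
LILRA5, chr19:54313167-54313416, minus strand: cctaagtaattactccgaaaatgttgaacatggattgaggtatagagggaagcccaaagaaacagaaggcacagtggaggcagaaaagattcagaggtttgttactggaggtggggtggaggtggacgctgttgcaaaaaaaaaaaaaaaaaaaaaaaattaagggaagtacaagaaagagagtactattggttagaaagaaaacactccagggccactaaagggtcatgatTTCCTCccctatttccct
SIGLEC15, chr18:45825425-45825674, plus strand: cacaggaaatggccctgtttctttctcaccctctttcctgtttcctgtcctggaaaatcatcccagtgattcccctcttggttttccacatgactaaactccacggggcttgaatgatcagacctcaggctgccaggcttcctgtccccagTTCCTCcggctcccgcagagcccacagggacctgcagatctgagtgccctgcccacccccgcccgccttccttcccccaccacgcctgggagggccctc
SIGLEC5, chr19:51630402-51630651, minus strand: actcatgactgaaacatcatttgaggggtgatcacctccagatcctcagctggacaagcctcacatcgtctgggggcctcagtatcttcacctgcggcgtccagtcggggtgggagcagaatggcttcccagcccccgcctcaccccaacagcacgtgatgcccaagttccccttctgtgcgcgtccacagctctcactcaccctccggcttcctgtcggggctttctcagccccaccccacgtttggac
CLEC4E, chr12:8540906-8541155, minus strand: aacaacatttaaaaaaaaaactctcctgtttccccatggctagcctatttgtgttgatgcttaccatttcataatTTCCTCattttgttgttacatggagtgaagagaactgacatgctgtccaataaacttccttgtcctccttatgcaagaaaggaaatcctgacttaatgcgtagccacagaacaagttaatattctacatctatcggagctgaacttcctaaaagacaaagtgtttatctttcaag
Of these windows, CLEC5A held 2 matches, LILRA5, SIGLEC15 and CLEC4E held 1 each, and SIGLEC5 held 0. An LPS rise was therefore seen both with a match and without one. CLEC4E exceeded the noise limit on 2 of 9 LPS and 1 of 9 untreated arrays. Its window therefore cannot stand for a gene that failed to rise.

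The signalling partners of these receptors were followed in lists drawn up around their known roles. Of 16 measured ITAM adaptors and kinases, 9 rose and none of the 16 fell. TYROBP (DAP12), the adaptor of CLEC5A and SIGLEC15, read 15.91, 15.96 and 15.89 with PBD150 plus LPS, 15.88, 15.74 and 15.86 with LPS, and 11.36, 11.41 and 11.52 untreated. It rose by 4.40 ± 0.16 (adjusted p = 2.96e-06), with 8 of 9 PBD150 plus LPS arrays and 6 of 9 LPS arrays within 99% of the array maximum, where the scale is compressed. FCER1G, the adaptor of CLEC4D and LILRA5, rose by 2.61 ± 0.28 (adjusted p = 0.000378), the kinase LYN by 1.89 ± 0.25 and the adaptor HCST by 1.30 ± 0.19. Downstream, the kinase PRKCD rose by 0.90 and the paracaspase MALT1 by 1.32. On the inhibitory side 1 of 6 rose, PTPN6 (SHP-1), by 1.23 ± 0.27 (adjusted p = 0.0129), while PTPN11 (SHP-2) differed by -1.03 ± 0.35 (adjusted p = 0.0686) and did not pass. Without untreated replicate 3 none of the 6 passed.

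**Figure D3:**
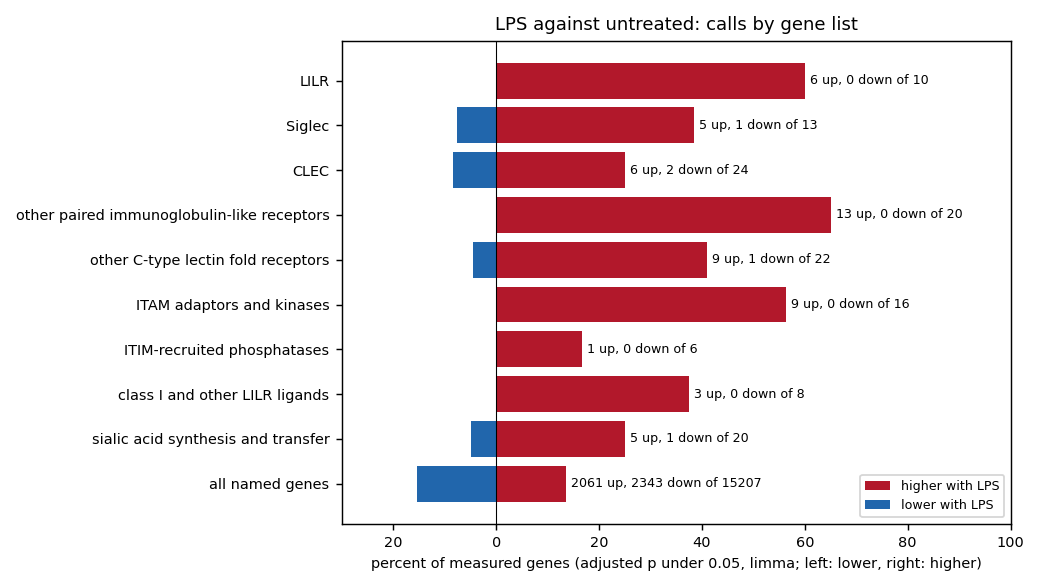
Percent of measured genes in each list called higher (to the right of 0) or lower (to the left of 0) in LPS against untreated, for the receptor families, their partner lists and all named genes. LILR genes reach 60% higher and none of the 10 lower, against 13.6% higher and 15.4% lower over all named genes.

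Of 8 measured LILR ligands, 3 rose and none of the 8 fell, against 6 that rose without scaling and 2 with median centring. At an unadjusted p under 0.05 (limma), 6 of the 8 were higher, against 3044 of 15207 named genes. HLA-C, a class I ligand, rose by 1.19 ± 0.28 (adjusted p = 0.0162). B2M, the shared class I light chain, differed by 0.01 ± 0.25 and was not among the ligands with the smallest p. The other 2 that passed the adjusted threshold were the alarmin subunits S100A8 and S100A9. S100A9 was near the array maximum on all 9 LPS arrays. Of 20 sialic acid enzymes, 5 rose and 1 fell: the sialyltransferases ST3GAL5, ST3GAL2 and ST6GAL1 rose by 1.60, 0.97 and 0.82, CMAS, which activates sialic acid, rose by 1.37, and CMAHP, the human relic of the enzyme that makes the non-human sialic acid, by 1.93. NANP, the phosphatase of the last synthesis step, fell by 2.34 (SE 0.44, adjusted p = 0.00569). Over the alternative analyses, 2 to 7 of the 20 enzymes rose and 1 to 2 fell, with 2 rising without untreated replicate 2 or 3.

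Of 22 other proteins with a C-type lectin fold or a related sugar-binding role, 9 rose and 1 fell. CD209 (DC-SIGN), the mannose and fucose receptor, read 9.77, 9.82 and 9.84 with PBD150 plus LPS, 9.92, 10.04 and 10.07 with LPS, and 5.45, 4.80 and 5.86 untreated, a difference of 4.64 ± 0.26 (adjusted p = 2.08e-05). ASGR2, a subunit of the galactose receptor, rose by 3.41 and OLR1, the oxidised LDL receptor, by 2.33. CD302 fell by 2.00 (SE 0.50, adjusted p = 0.0214); it was named after its value was seen. Of 20 other paired immunoglobulin-like receptors, 13 rose and none of the 20 fell. PILRA, an ITIM receptor, rose by 5.77 ± 0.16, TREM1, which amplifies inflammation through DAP12, by 5.08 ± 0.24, and TREM2, a lipid receptor that also uses DAP12, by 3.29 ± 0.19.

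Markers of cell types were set beside these receptors. Over all named genes, LPS against untreated called 13.6% higher and 15.4% lower. Of 10 measured monocyte or macrophage markers, 7 rose and none of the 10 fell, while 3 did not pass. Of the 10 differences, 2 were below 0, the lowest at -0.65. The summed intensity of these markers was 137822 to 138664 with PBD150 plus LPS, 129664 to 137315 with LPS and 6282 to 6898 untreated. This list includes TYROBP, which is also counted among the ITAM adaptors above. Because TYROBP was near the array maximum on most treated arrays, the treated sums are compressed. ITGAM (CD11b), a defining marker alongside CD14 and CD68, whose values are not given here, rose by 4.35 ± 0.16. Of 7 dendritic cell markers, 4 rose and none of the 7 fell, with sums of 2206 to 2779 in PBD150 plus LPS cultures, 1718 to 2341 in LPS cultures and 394.3 to 436.2 in untreated cultures. Of 5 B cell markers, 1 rose (MS4A1) and 1 fell (CD79A), with sums of 683.9 to 794.5 with PBD150 plus LPS, 733.8 to 927.9 with LPS and 1174 to 1246 untreated. No B cell marker rose with a replicate block, or without LPS replicate 3, untreated replicate 1 or untreated replicate 3. Platelet markers summed to 53000 to 66199 with PBD150 plus LPS, 23810 to 66298 with LPS and 1009 to 1041 untreated, with PPBP 6.55 higher with LPS, while the defining marker PF4 differed by -0.26 ± 0.19 with LPS. Of 8 T or natural killer cell markers, 2 rose and none of the 8 fell, of 8 granulocyte markers 1 rose and 2 fell, and of 5 endothelial markers 1 rose and none of the 5 fell. Without scaling, 4 T or natural killer cell, 2 granulocyte, 3 platelet and 3 endothelial markers rose. Sums on the normalised scale follow for T or natural killer cell, granulocyte and endothelial markers, in that order. They were 33404 to 34656, 37191 to 43828 and 2591 to 4163 with PBD150 plus LPS. With LPS they were 32739 to 41069, 41095 to 45714 and 3065 to 4019, and untreated 16955 to 19124, 75818 to 78166 and 899.8 to 1029. Only 1 measured marker, of platelets, was above the noise limit on no array of any group. The part of cell state in the receptor changes was not tested.

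PBD150 plus LPS against untreated showed 17 receptors higher, 3 lower and 27 not called, where the rule called 15.3% of all named genes higher and 17.9% lower. The median difference was 0.78. Of the 17 and 3, 15 higher and 3 lower receptors were also called with LPS, and both comparisons share the untreated cultures. LILRA3 stood 6.68 ± 0.25 above untreated (adjusted p = 3.17e-06), CLEC4A 5.82 ± 0.50 (adjusted p = 0.000113), LILRA5 4.27 ± 0.56 (adjusted p = 0.000787), LILRB1 3.83 ± 0.21 (adjusted p = 1.66e-05) and SIGLEC15 3.16 ± 0.25 (adjusted p = 7.18e-05).

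The calls differed for 4 genes. SIGLEC1 differed from untreated by 1.21 ± 0.52 (adjusted p = 0.128) and SIGLEC12 by 0.58 ± 0.19 (adjusted p = 0.0514) with PBD150 plus LPS, and neither passed there. CLEC4G (LSECtin), a lectin of liver sinusoidal endothelium, passed at 0.87 ± 0.26 (adjusted p = 0.0409) with PBD150 plus LPS, against 0.59 ± 0.26 (adjusted p = 0.152) with LPS. Its pseudogene CLEC4GP1 passed at 0.78 ± 0.21 (adjusted p = 0.0249), against 0.46 ± 0.21 (adjusted p = 0.152). Tested directly, PBD150 plus LPS against LPS passed for none of the 4, with differences of -0.70 for SIGLEC1, -0.08 for SIGLEC12, 0.28 for CLEC4G and 0.31 for CLEC4GP1. The CLEC4G and CLEC4GP1 calls each ended without PBD150 plus LPS replicate 1 or 2 or any 1 untreated culture, and that of CLEC4G also without LPS replicate 2 (highest adjusted p = 0.132 for CLEC4G and 0.0884 for CLEC4GP1). The 2 genes are close in sequence and may share signal.

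PBD150 plus LPS against LPS asks what the glutaminyl cyclase inhibitor changed in LPS-treated cells. No receptor was called (limma), and over all named genes the rule called 0% higher and 0% lower, and the smallest adjusted p among the 47 was 0.906. At an unadjusted p under 0.05 there were 0 receptors, against 1.64% of named genes higher and 2.82% lower. The median difference was -0.01, and 24 of the 47 were below 0, against 50.8% of named genes.

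The 17 LPS-raised receptors differed by -0.70 to 0.39 between PBD150 plus LPS and LPS. LILRA3 differed by 0.04, with a 95% interval from -0.52 to 0.60, and LILRB1 by 0.18, with an interval from -0.31 to 0.67. LILRB2 differed by -0.09 (-0.61 to 0.42), SIGLEC5 by -0.09 (-0.50 to 0.32) and CLEC5A by -0.07 (-0.47 to 0.34). For these receptors the interval lay inside a doubling or halving. For CLEC4A the interval ran from -1.43 to 0.86 and for LILRA5 from -0.88 to 1.66, which leaves larger changes within the error. In all, 14 of the 17 raised receptors and 32 of the 47 had an interval within a doubling or halving, and 17 of 17 and 44 of 47 within a 4-fold change either way.

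**Figure D4:**
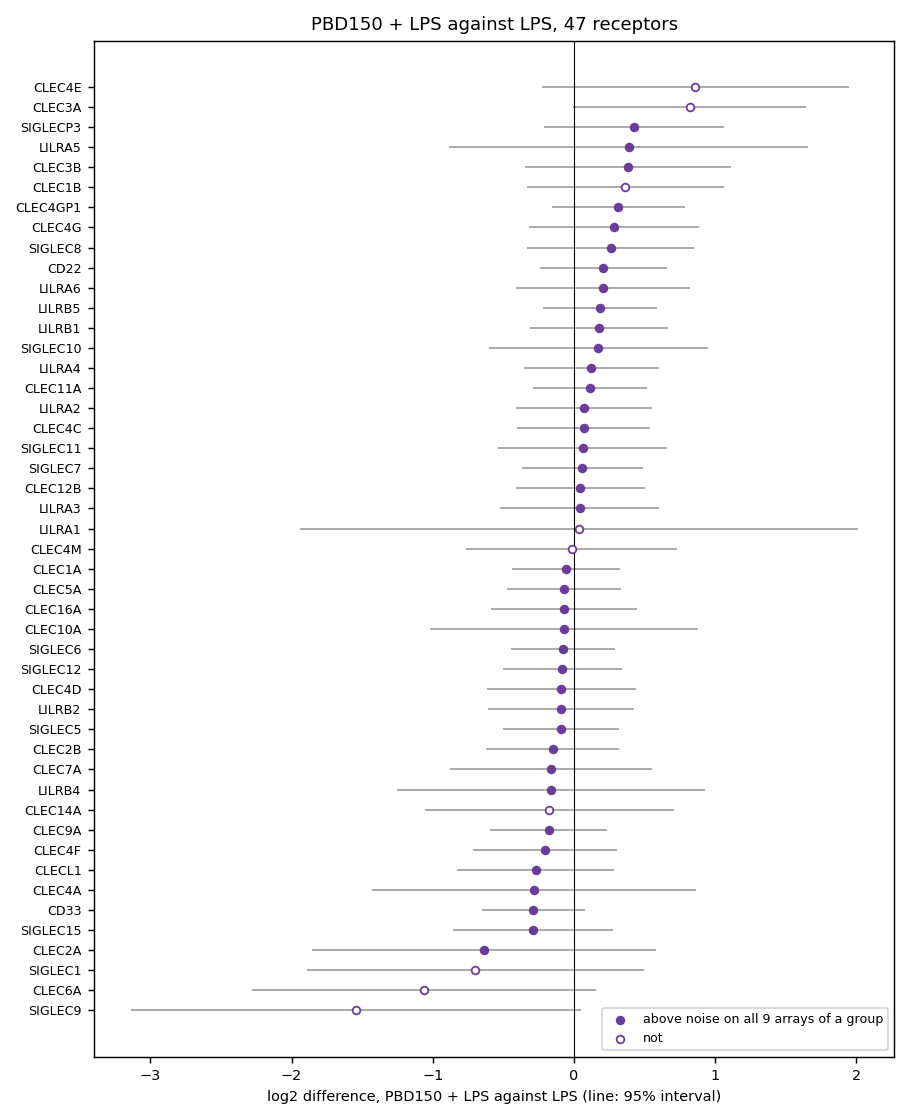
Log2 difference between PBD150 plus LPS and LPS with its 95% interval for the 47 receptor genes (n = 3 cultures per group); open symbols mark the 9 genes that were not above the noise limit on all arrays of any group. Differences run from -1.54 (SIGLEC9) to 0.86 (CLEC4E), both open symbols, and no gene passed the test.

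Where the PBD150 plus LPS and LPS cultures did not overlap, 1 receptor was higher and 3 were lower, against 3.27% and 4.47% of all named genes. CD33 was one of them: its PBD150 plus LPS cultures, at 11.72 to 11.91, lay below its LPS cultures, at 11.99 to 12.16. That difference was -0.29, with a 95% interval from -0.65 to 0.08 (adjusted p = 0.906). CLEC9A differed by -0.18 (-0.60 to 0.24), and SIGLEC1 read 4.32, 3.87 and 4.35 with PBD150 plus LPS against 4.39, 5.19 and 5.05 with LPS, a difference of -0.70 (-1.89 to 0.50). CLEC3A, a cartilage lectin near the noise limit here, was the higher one, at 0.82 (-0.01 to 1.65). The extremes of the 47 were SIGLEC9 at -1.54 and CLEC4E at 0.86. SIGLEC9 was at or below the noise limit on most arrays of every group. CLEC4E exceeded the limit on 6 of 9 PBD150 plus LPS arrays and 2 of 9 LPS arrays. None of the 6 partner lists had a called gene in this comparison.

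The spread differed between groups. The median SD between cultures over the 47 receptors was 0.27 with PBD150 plus LPS, 0.23 with LPS and 0.19 untreated, and over all probes it was 0.37 with PBD150 plus LPS, 0.36 with LPS and 0.21 untreated. The fit uses 1 spread per probe for all groups, so the intervals between PBD150 plus LPS and LPS borrow from the untreated cultures, whose spread was smaller.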

How the data were processed

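RNA of U937 cells was read on a one-colour (Cy5) Human OneArray in 27 samples, per the labels. The deposited table gives linear intensity per probe and array. Values below 0 show that background was subtracted before deposit, while scanner and scaling are not stated in the labels or file headers. Intensities were floored at 1 (4.35% to 7.59% of values per array), log2 transformed, quantile normalised over 27 arrays and averaged over the 3 arrays of each culture. A group-means model over 9 cultures was fitted in limma 3.58.1 (R 4.3.3), with two-sided moderated tests adjusted by Benjamini-Hochberg for all 30968 probes (threshold 0.05). The calculation was tested on simulated data.

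Probes were named through the platform table and RefSeq genes (GRCh38.p14): 17397 probes had 1 symbol and 13571 were unnamed here. Of the probes with a symbol, 14670 had a current one, 2645 an updated one and 82 an unmatched one. Of the 47 receptors 46 symbols were current. The brightest probe represented a gene. Receptors, partner lists and markers were chosen with earlier results of these data known. Every receptor may be named, and of each other list up to 6 genes with the smallest p for LPS against untreated. B2M was named outside that rule. No arrays held identical values. Scaling, pseudocount, dim-probe filter, samples in the fit, replicate block, array-level fit, array weights, probe choice and leaving out each culture were varied. The number of arrays limits the precision.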

Additional observations from a re-analysis of the deposited data

How the results depend on the processing

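Of 18 alternatives, 9 left out 1 culture each. With LPS against untreated, 13 to 25 receptors were higher and 2 to 4 lower, and with PBD150 plus LPS against untreated 12 to 25 were higher and 2 to 4 lower. No alternative called a receptor for PBD150 plus LPS against LPS, where the smallest adjusted p was 0.295, without PBD150 plus LPS replicate 3. In each comparison with untreated, 14 of 20 calls held under every alternative run, 12 of them higher. The calls lost under at least one were CLEC12B, CLEC2A, CLEC7A, LILRA2, SIGLEC1 and SIGLEC12 with LPS, and CLEC12B, CLEC4G, CLEC4GP1, CLEC7A, LILRA2 and SIGLECP3 with PBD150 plus LPS. Scaling moved the median of all probes for LPS against untreated to 0.41 with values as deposited and to -0.07 with median centring, against 0.08 as reported, and the receptors' median to 1.01 and 0.53, against 0.65.

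With a replicate block, LPS raised 16 receptors and lowered 2, and PBD150 plus LPS raised 14 and lowered 3. Deviations of same-numbered cultures from their group means correlated at -0.22 to 0.04. With 3 cultures per group this cannot tell whether they shared a day or batch, which the labels do not state. Of the partner list calls for LPS against untreated, 1 changed direction under an alternative (MRC2, with all probes of a gene averaged). Between alternatives, 6 to 10 ITAM adaptors and kinases rose and 0 to 2 fell. For other C-type lectin fold receptors it was 5 to 11 and 0 to 3, and for other paired immunoglobulin-like receptors 12 to 15 and 0 to 1.

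Directions changed only for receptors that were not called in that comparison. For LPS against untreated these were CLEC11A at 0.0067 and CLEC2B at 0.33 with values as deposited, and CLEC16A at -0.0055 with median centring and -0.036 with array weights. For PBD150 plus LPS against untreated they were SIGLEC9 at 0.071 as deposited and 0.0019 with a pseudocount of 16, CD33 at -0.024 and CLEC16A at -0.052 with median centring, and CLEC16A at -0.125 with array weights. For PBD150 plus LPS against LPS, over the 16 receptors named there, they were LILRA3 at -0.20 and LILRB1 at -0.042 as deposited, LILRA3 at -0.042 with median centring, and LILRA3 at -0.097 and LILRA5 at -0.18 with array weights. Leaving out 1 culture gave ranges across 0 for LPS against untreated in CLEC16A (-0.11 to 0.24), CLEC2B (-0.24 to 0.037), CLEC3B (-0.12 to 0.46) and CLEC4E (-0.072 to 0.81). For PBD150 plus LPS against untreated they were CLEC16A (-0.18 to 0.17), CLEC6A (-0.025 to 1.00) and SIGLEC9 (-1.08 to 0.49). For PBD150 plus LPS against LPS they were CLEC4A (-0.48 to 0.029), CLEC5A (-0.17 to 0.023), LILRA3 (-0.064 to 0.15), LILRA5 (-0.36 to 0.78), LILRB2 (-0.26 to 0.051), SIGLEC12 (-0.22 to 0.033) and SIGLEC5 (-0.21 to 0.026). The cause was not tested. Signal over background limits the 9 receptors that no group showed above noise on all its arrays.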
